A study of Mus musculus with 41 samples.

Results

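Immunoglobulin light chain variable segments were taken as every row of the deposited transcript abundance (TPM) table whose gene symbol begins with Igkv or Iglv. There were 165 of them among 41075 rows: 162 kappa segments, which lie on chromosome 6 between 67532620 and 70681161 (build GRCm39), and 3 lambda segments on chromosome 16. Polyadenylated RNA had been sequenced in bulk from 6 B cell subsets sorted from the spleens of mice of 3 to 5 months, and 40 of 41 libraries, from 16 animals, were used. The libraries labelled 1Mek2 come from mice whose Mek1 alleles are floxed, which are heterozygous for Mek2 and which carry Vav1-iCre, a Cre with a promoter active across blood cells, and the reference libraries are labelled wt. Mek1 (gene Map2k1) and Mek2 (Map2k2) encode kinases that activate ERK, a signal that B cell receptors trigger, and the series asks what their deletion changes in each subset. There were 3 libraries labelled 1Mek2 and 3 wt libraries of Immature (B220+CD93+CD138-), age-associated (ABC, whose sort gate is not given in the sources used here), MarginalZone (CD21+CD23-) and Plasma (B220+CD138+) cells. Germinal center (GC, GL7+FAS+) and Follicular (CD21+CD23+) cells had 4 and 4. The Immature library whose name reads Mek1ff (animal 565) was left out, and the GC library of that animal, labelled wt under a like name, was kept as wt.

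A B cell makes its light chain by joining a variable (V) segment to a joining (J) segment and then to a constant gene, at the kappa locus or, in fewer mouse B cells, at the lambda locus. Kappa joining can be repeated on the same chromosome, which replaces a light chain that makes the receptor self-reactive. Since each cell keeps in general 1 productive light chain, the mix of V transcripts in a sorted population reflects both which segments its cells carry and how much light chain RNA each cell makes, and in bulk RNA these cannot be told apart. Plasma cells, which secrete antibody, make far more of it per cell than resting B cells.

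The segments that carry the results are shown by the end of their coding sequence, which codes for the start of the third antigen-contacting loop. Each line gives the last 72 bases of the GENCODE M21 transcript, 5′ to 3′. The capitals mark the cysteine codon that follows a tyrosine codon and 1 further codon. Igkv6-15 and Igkv6-23 are shown because they led most libraries, Igkv6-14 and Igkv6-13 because they are close to Igkv6-15 in sequence, Igkv3-2, Igkv3-4 and Igkv1-133 because they differed between animals, and Igkv4-73, annotated as a pseudogene, because it led an ABC library. The 3 lambda segments follow.
Igkv6-15: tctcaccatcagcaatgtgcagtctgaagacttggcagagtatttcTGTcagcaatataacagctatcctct
Igkv6-23: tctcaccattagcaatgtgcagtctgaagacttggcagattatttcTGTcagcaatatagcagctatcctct
Igkv6-14: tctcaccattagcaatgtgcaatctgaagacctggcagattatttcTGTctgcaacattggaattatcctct
Igkv6-13: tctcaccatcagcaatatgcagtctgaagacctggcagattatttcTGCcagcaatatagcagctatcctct
Igkv3-2: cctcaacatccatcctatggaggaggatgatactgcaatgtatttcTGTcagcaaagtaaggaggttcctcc
Igkv3-4: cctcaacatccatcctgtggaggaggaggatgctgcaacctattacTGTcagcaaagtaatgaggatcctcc
Igkv1-133: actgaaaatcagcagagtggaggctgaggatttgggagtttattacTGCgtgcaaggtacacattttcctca
Igkv4-73: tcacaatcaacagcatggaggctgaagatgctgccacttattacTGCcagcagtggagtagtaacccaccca
Iglv1: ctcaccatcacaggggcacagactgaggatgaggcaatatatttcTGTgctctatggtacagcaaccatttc
Iglv2: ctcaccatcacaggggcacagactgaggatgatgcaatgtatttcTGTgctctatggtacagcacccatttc
Iglv3: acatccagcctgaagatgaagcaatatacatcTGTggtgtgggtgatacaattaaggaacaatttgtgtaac

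Several of these are close in sequence. Over the whole transcript, Igkv6-15 was 94.5% identical to Igkv6-23, 93.7% to Igkv6-13 and 92.2% to Igkv6-14, while Igkv3-2 was 91.4% identical to Igkv3-4. Iglv1 and Iglv2 were 96.7% identical, and Iglv3 was 56.1% identical to Iglv1. With reads of 100 bases, 113 of the 163 segments that have an M21 transcript had no 100-base stretch in common with another segment, and 4 had over 50% of theirs in common. Values of segments that share such stretches, Iglv1 with Iglv2 and Igkv6-14 with Igkv6-13 among them, are uncertain to that extent, since how the authors assigned such reads is not stated.

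Of the 165 segments, 13 reached 1 TPM in no library and 23 reached it in every library used. The annotation calls 103 of them genes and 60 pseudogenes. The pseudogenes held from 0.163% to 40.5% of the light chain V sum of a library. Reads on exons ran from 7897848 to 29204625 per library, of which 4088 to 1747503 fell on light chain V segments, so the 95% Wilson interval of a leading segment's share was at most 2.94 percentage points wide. It covers counting error only. Subset markers rose over Follicular in 2 of 2 Immature, 3 of 4 GC, 2 of 3 ABC and 3 of 3 MarginalZone genes and in 8 of 8 plasma cell genes, by limma with Benjamini-Hochberg adjustment over all rows. The subset markers were not specific, as 2 of 3 ABC and 2 of 3 MarginalZone genes also rose in Immature cells. Markers of other cells also rose. These were 3 of 6 plasmacytoid dendritic cell genes in Immature, 4 of 6 of these and 3 of 8 T cell genes in ABC, and 8 of 8 neutrophil and 8 of 8 T cell genes in Plasma. Map2k1 and Map2k2 were not called between genotypes in any subset, so these levels do not check the labels. An index of 1038 genes outside the immunoglobulin loci also set libraries apart, as index-high or index-low, within both genotypes. It was found in the values, and the labels do not name it. Its genes set the second Follicular library labelled 1Mek2 and the fourth Follicular wt library apart from the other Follicular libraries. The same cut, at 1, was then used in every subset, where the index may also reflect the subset. Index-low Plasma values (-0.72, 0.12 and 0.42) lay above index-low Follicular ones (-2.58 to -1.39). Index-high libraries were all those of Immature and GC, 1 of 3 ABC libraries labelled 1Mek2, 1 of 4 Follicular libraries of each genotype, 1 of 3 MarginalZone wt libraries, and 1 of 3 Plasma libraries labelled 1Mek2 against 2 of 3 wt.

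The sum of all light chain V segments was highest in Plasma cells. It was 320687, 357498 and 326207 TPM in Plasma libraries labelled 1Mek2, against 260417, 149135 and 252468 TPM in wt, while the 8 Follicular libraries lay between 26144 and 37633 TPM. All 3 Plasma libraries labelled 1Mek2 were above the 3 wt libraries. In Immature cells the sum was 54463, 118510 and 100002 TPM in libraries labelled 1Mek2 and 42021, 47027 and 41986 TPM in wt, again without overlap. In the same Immature libraries Jchain, which links antibody units into polymers and marks antibody-secreting cells, was at 2248, 5315 and 4755 TPM, against 1043, 306 and 249 TPM in wt. The summed level of the 8 plasma cell markers was 4430 to 7832 TPM against 1308 to 2689 TPM in wt, and that of the 4 germinal center markers 608 to 700 TPM against 100 to 381 TPM. No gene of either list was called between genotypes in Immature cells, and the part of these cells in the result was not tested.

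GC libraries labelled 1Mek2 held 31714, 32546, 30902 and 56302 TPM, against 25604, 25293, 29612 and 21011 TPM in wt, so the groups did not overlap there either. Follicular libraries labelled 1Mek2 held 26144 to 37521 TPM and wt 31533 to 37633 TPM, which overlap. In ABC the sum was 10660, 14944 and 36541 TPM in libraries labelled 1Mek2, against 3464, 12261 and 12576 TPM in wt; the highest of these libraries is the index-high one, and the groups overlap. MarginalZone libraries labelled 1Mek2 held 12867, 8472 and 12068 TPM, against 19167, 33255 and 12443 TPM in wt. There the wt library with the highest sum was the index-high one.

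**Figure D1:**
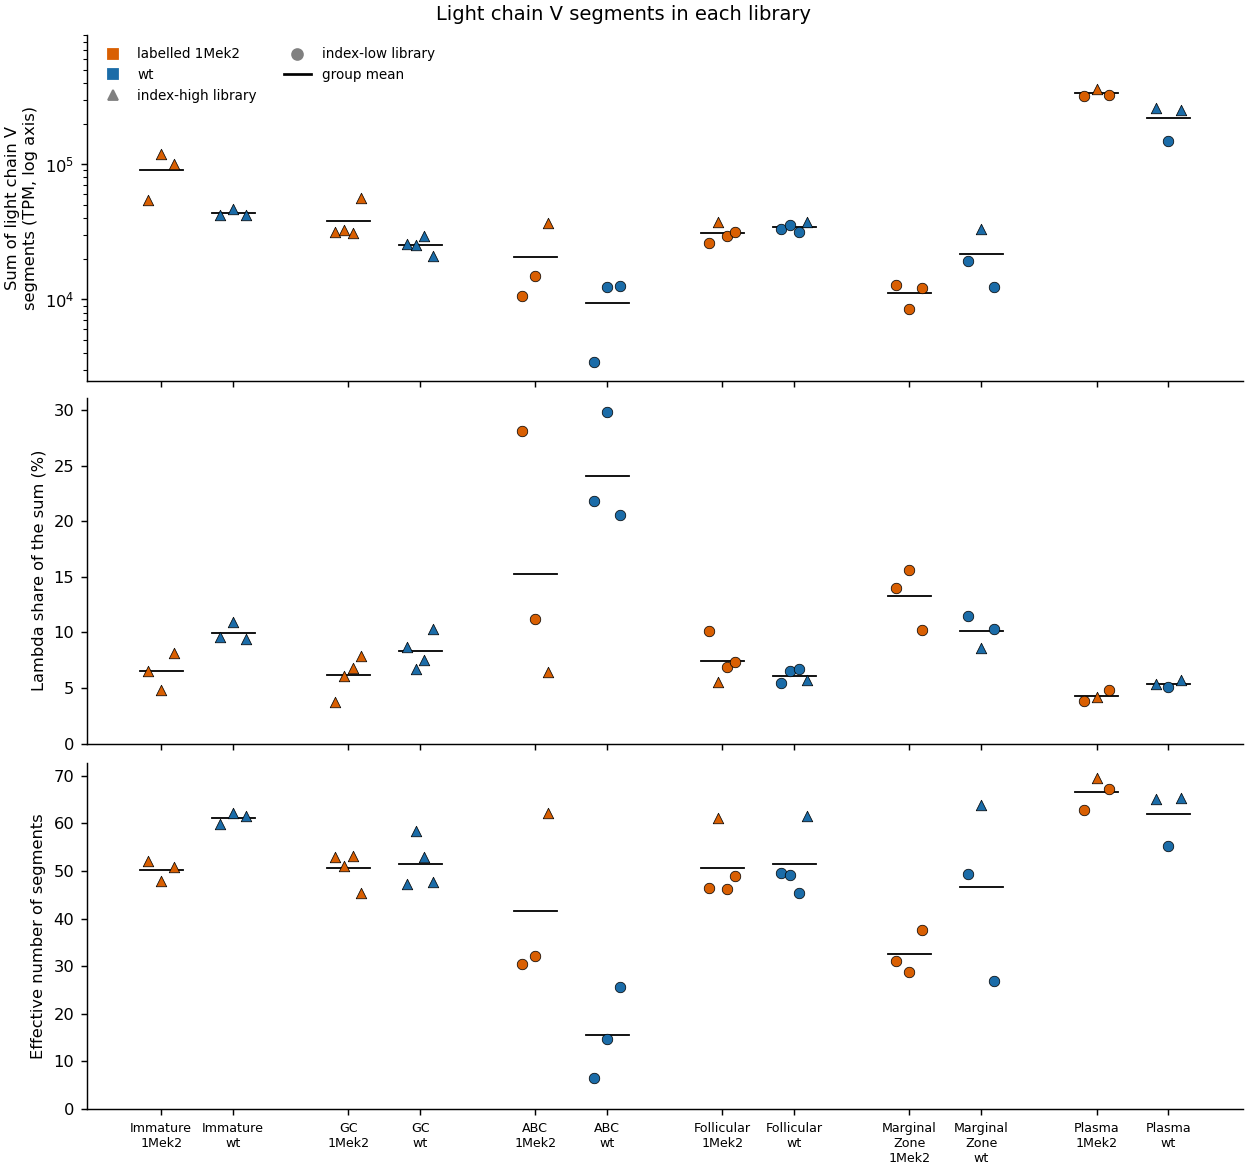
Each point is a library of the group named on the horizontal axis, orange for libraries labelled 1Mek2 and blue for wt, with triangles for index-high and circles for index-low libraries and a line at the group mean. The panels give the light chain V sum (TPM, log axis), the lambda share of that sum (%) and the effective number of segments; Plasma libraries have the highest sums (149135 to 357498 TPM) and ABC wt libraries the lowest effective numbers (6.50 to 25.5).

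Kappa segments made up most of the V sum in every library, and the lambda share averaged 4.84% over the 6 Plasma libraries, 11.7% over the 6 MarginalZone libraries and 19.7% over the 6 ABC libraries, against 6.78% over the 8 Follicular libraries. In Plasma cells lambda segments held 3.86%, 4.17% and 4.83% in libraries labelled 1Mek2, against 5.38%, 5.12% and 5.70% in wt. In Immature cells they held 6.56%, 4.82% and 8.13%, against 9.61%, 10.9% and 9.38% in wt. In both subsets every library labelled 1Mek2 was below every wt library. These shares are given as descriptions, with no test.

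The other subsets showed no such separation. GC libraries had 3.75% to 7.91% lambda in libraries labelled 1Mek2 and 6.67% to 10.3% in wt, and Follicular libraries 5.58% to 10.1% when labelled 1Mek2 and 5.41% to 6.70% in wt. MarginalZone libraries labelled 1Mek2 had 14.0%, 15.6% and 10.3%, against 11.5%, 8.64% and 10.3% in wt. ABC libraries ranged most widely, with 28.2%, 11.2% and 6.40% in libraries labelled 1Mek2, against 21.8%, 29.8% and 20.6% in wt. By the constant genes the level was different: Iglc genes held 23.3% to 62.0% of the summed Igkc and Iglc levels of a library. In Immature cells they held 30.53%, 31.62% and 37.08% in libraries labelled 1Mek2, against 39.16%, 47.12% and 45.85% in wt. There the direction was the same as for the V segments. In Plasma cells Igkc was at 27862, 27494 and 25556 TPM in libraries labelled 1Mek2, against 25099, 29986 and 25184 TPM in wt. The 5 light chain constant genes summed to 43140 to 46170 TPM, against 39800 to 43780 TPM in wt. These Plasma levels do not show the lower lambda part in libraries labelled 1Mek2 that the V segments gave. The V segments and the constant genes thus gave different levels of lambda use in the same libraries, and the cause was not tested.

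Among the lambda segments, Iglv1 dominated in most subsets. It held a mean of 77.4% of lambda V transcripts over the 6 Immature libraries, 76.9% over the 8 GC libraries, 72.1% over the 8 Follicular libraries and 70.4% over the 6 Plasma libraries. The lambda pool of MarginalZone cells was more mixed, with a mean of 58.0% for Iglv1 and 23.3% for Iglv3. In ABC libraries Iglv3 held between 14.9% and 90.4% of it, the highest in a wt library. In Plasma libraries Iglv2 took 22.7% on average and Iglv3 only 6.94%. Iglv2 and Iglv1 share 5 windows of 100 bases, so their split is less certain than that of Iglv3.

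Use was spread over many segments. The 37 segments with a mean share of at least 1% together held 74.0%. Igkv6-15 (chromosome 6, 70383453 to 70383976, minus strand) had the largest mean share, 8.57%, and led 19 of the 40 libraries. Igkv6-23 (70237393 to 70237917) averaged 5.52% and led 7, Iglv1 (chromosome 16, 18903767 to 18904210) averaged 5.76% and led 6, and Igkv8-30 (chromosome 6, 70094045 to 70094601) averaged 3.14% and led 4. Plasma cells had the flattest mix, in which no segment averaged over 3.79% in libraries labelled 1Mek2 or 3.77% in wt and it took 17 to 23 segments to reach 50% of the sum. In MarginalZone cells Igkv6-15 alone averaged 18.1% ± 1.28 in libraries labelled 1Mek2 and 11.1% ± 12.5 in wt (SD, n = 3 each).

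**Figure D2:**
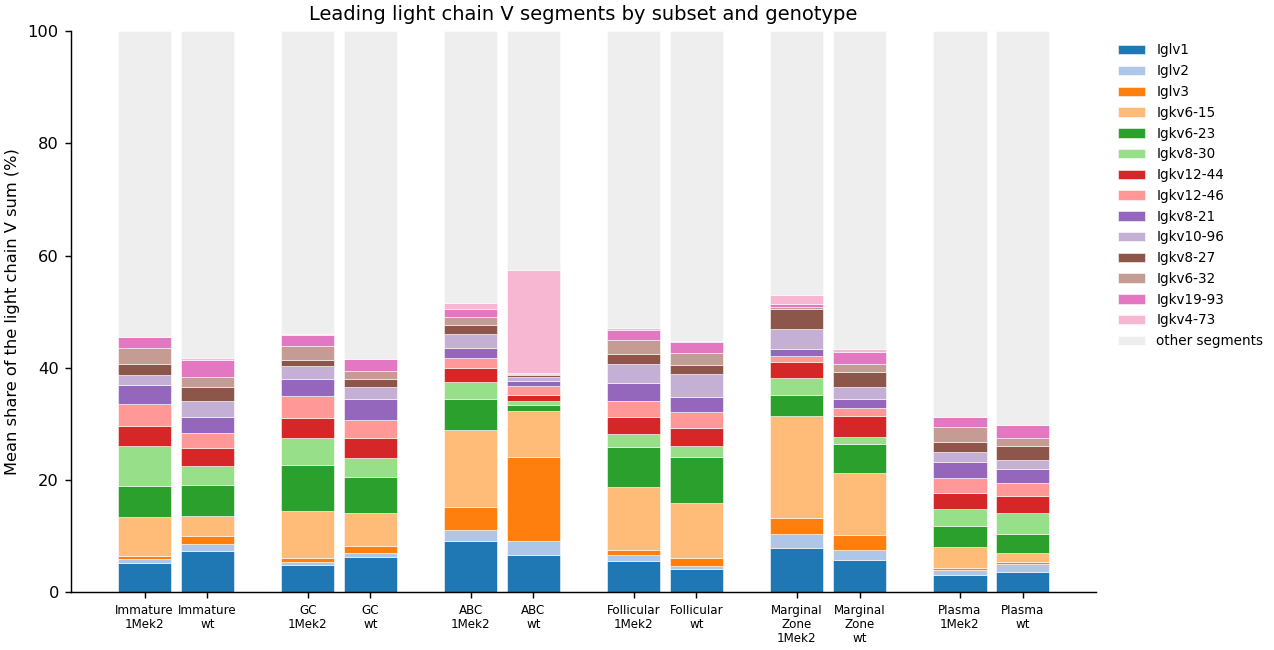
Each bar is the mean composition of the light chain V sum in a group (percent of the sum, libraries weighted equally), with the lambda segments at the bottom, then the leading kappa segments and all others in grey. Igkv6-15 is the widest band in both Follicular groups (11.4% in libraries labelled 1Mek2 and 9.78% in wt), and Igkv4-73 is the widest band in the ABC wt bar (18.4%).

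Evenness was measured as the effective number of segments, the number of equally used segments that would give the same Shannon entropy. It was 52.1, 47.9 and 50.7 in Immature libraries labelled 1Mek2, against 59.9, 62.1 and 61.5 in wt, without overlap. In these libraries labelled 1Mek2 Igkv8-30 held 5.75%, 11.1% and 4.54% of the sum, against 3.38%, 2.83% and 3.91% in wt. Plasma libraries had 62.9, 69.5 and 67.3 effective segments when labelled 1Mek2, against 65.0, 55.3 and 65.4 in wt. GC libraries labelled 1Mek2 had 45.4 to 53.1, against 47.2 to 58.4 in wt, and both pairs of groups overlap.

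In the 4 subsets with both kinds of library, index-high libraries were the most even of their genotype. Follicular libraries had 46.5, 61.1, 46.3 and 49.0 effective segments when labelled 1Mek2, against 49.6, 49.1, 45.5 and 61.6 in wt. The 61.1 and the 61.6 belong to the index-high libraries. In ABC the index-high library had 62.2, beside 30.5 and 32.1 in the other libraries labelled 1Mek2 and 6.50, 14.6 and 25.5 in wt. MarginalZone libraries had 31.2, 28.7 and 37.6 when labelled 1Mek2, against 49.3, 63.8 and 26.9 in wt, where 63.8 is the index-high library. What the index stands for was not tested.

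The least even libraries were ABC wt. In the first of them Igkv4-73 held 36.2% of the sum, Iglv3 19.7%, Igkv3-5 18.3% and Igkv3-10 10.9%, and the 5 leading segments together held 89.4%. In the second Iglv3 held 14.6% and Igkv4-73 12.1%, and in the third Igkv6-15 held 15.0%, Iglv3 10.2% and Igkv4-73 7.08%. The first of them had the lowest light chain V sum of all libraries, 3464 TPM. B cell markers were low there too: their summed level was 7633 to 12600 TPM in ABC libraries labelled 1Mek2, against 2051 to 4268 TPM in wt. Markers of plasmacytoid dendritic cells summed to 127 to 7611 TPM in ABC libraries labelled 1Mek2 and 3333 to 4301 TPM in wt. Whether these cells bear on the mix of segments was not tested.

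Each subset was next compared with Follicular cells, with genotype as a term, by limma on log2(TPM + 1). Segments were tested where at least 3 libraries of a comparison reached 1 TPM, calls are at an adjusted p of 0.05 over all rows tested, and log2 fold changes are on that scale, which understates the change of low segments. In Plasma cells 103 of 132 segments tested rose and 5 fell, while 58.7% of all genes tested were called, 14% higher and 44.7% lower. The median log2 fold change was 2.96 over the segments and -0.67 over all genes. Rescaling to the genes outside the immunoglobulin loci brought the median of all genes to -0.05, and 116 segments then rose and 3 fell.

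The 3 lambda segments all rose in Plasma cells, by a log2 fold change of 2.52 for Iglv1 (limma adjusted p = 5.91e-09), 3.52 for Iglv2 (2.19e-07) and 1.33 for Iglv3 (0.00282). Igkv14-126 was at 2970 to 6416 TPM (median 4646) in the 6 Plasma libraries, against 72.6 to 159 TPM (median 121) in the 8 Follicular libraries. The groups are far apart, with a log2 fold change of 5.20 ± 0.19 (SE; limma adjusted p = 5.09e-11). Igkv4-63 followed with 5.03 ± 0.29 and Igkv4-91 with 4.68 ± 0.22. Igkc, the kappa constant gene, rose by only 0.78 (limma adjusted p = 0.000202), so the ratio of summed Igkv to Igkc TPM was 4.72 to 12.5 in Plasma libraries and 1.52 to 2.78 in Follicular libraries. Igkv4-51 was among the 5 that fell, with a mean of 142.5 ± 140 TPM in Plasma and 303 ± 227 TPM in Follicular libraries (SD, n = 6 and 8; limma adjusted p = 0.0297). Of 13 transcription factors known to act on light chain genes, among them Pax5, Spib and Ebf1, 11 fell in Plasma cells and 1 rose.

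In Immature cells 56 of 128 segments tested rose and none fell. Of all genes 34.4% were called, 19.9% higher and 14.4% lower. The median was 0.86 for segments and 0.03 for all genes. In the same comparison 4 of 7 plasma cell markers and 3 of 4 germinal center markers rose, and their part in the result was not tested. Igkv8-30 was at 1330 to 13120 TPM (median 2387) in the 6 Immature libraries, against 497 to 1075 TPM (median 622) in the 8 Follicular libraries. These ranges do not overlap, and the log2 fold change was 2.13 ± 0.36 (SE; limma adjusted p = 0.000828). Igkv12-47 was at 6.24 to 65.5 TPM in Immature and 0 to 2.72 TPM in Follicular libraries, with the largest change, 4.25 ± 0.40 (limma adjusted p = 6.21e-06). Iglv1 rose by 1.27 ± 0.17 (limma adjusted p = 0.000178), Iglv2 by 1.15 and Iglv3 by 0.67. Joining segments rose in 5 of 9 tested, genes of V(D)J recombination, which cuts and joins the segments, in 6 of 10, and hypermutation genes, which alter rearranged V segments in germinal centers, in 5 of 8. All Immature libraries are index-high: against the 2 index-high Follicular libraries alone, 2 segments were called, and within wt libraries alone 11.

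GC cells had sums like those of Follicular cells. There 2 of 127 segments rose and 18 fell, against 43.6% of all genes called, 23% higher and 20.6% lower. Igkv14-111 was at 364, 447, 472 and 609 TPM in GC libraries labelled 1Mek2 and 1722, 684.5, 981 and 1107 TPM in GC wt, against 224 to 443 TPM in the 8 Follicular libraries. The GC wt libraries were the highest, and those labelled 1Mek2 overlapped the Follicular range. Igkv14-111 rose by a log2 fold change of 1.00 ± 0.23 (limma adjusted p = 0.00211) and Igkv8-30 by 0.76 ± 0.29 (limma adjusted p = 0.0416). The largest drop was that of Igkv4-51, at 5.26 to 70.3 TPM in the 8 GC libraries. Its mean was 26.5 ± 20.3 TPM in GC and 303 ± 227 TPM in Follicular libraries (SD, n = 8 each), without overlap, and it fell by 3.42 ± 0.49 on the log2 scale (limma adjusted p = 3.06e-05). Igkv4-73 fell as well, by 1.16 ± 0.31. All 8 hypermutation genes rose in GC cells, as did 4 of 9 recombination genes. The lambda constant genes Iglc2 and Iglc3 fell by 1.60 and 0.70, and no lambda V segment was called. All GC libraries are index-high too, and with index-high libraries alone 1 segment was called.

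The segments called in MarginalZone cells were all lower than in Follicular cells, and those called in ABC were lower but for 1. In MarginalZone cells 26 of 125 segments fell and none rose, against 2.05% of all genes called, 0.793% higher and 1.25% lower. The median was -1.96 for segments and -0.20 for all genes. Igkv14-130 averaged 8.61 ± 12.1 TPM in MarginalZone and 74.1 ± 24.5 TPM in Follicular libraries (SD, n = 6 and 8), without overlap, and fell by 4.03 ± 0.57 (limma adjusted p = 0.00162). Igkv14-100 fell by 4.05 ± 0.72 and Igkv4-61 by 4.01 ± 0.76. The lambda segments were not called. Of 5 light chain constant genes 0 were called, with a median of 0.05. The ratio of summed Igkv to Igkc TPM was 0.534 to 2.384 in MarginalZone libraries, highest in the index-high one, and 1.524 to 2.781 in Follicular libraries. Why V segments and constant genes differ was not tested. The count of segments called was 0 within wt libraries alone, 4 by edgeR on exon reads and 65 without the second MarginalZone wt library, the index-high one.

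In ABC 76 of 123 segments tested fell and 1 rose, against 12.6% of all genes called, 2.9% higher and 9.68% lower. The 1 that rose was Igkv4-73. It was at 197, 154 and 55.7 TPM in ABC libraries labelled 1Mek2 and 1253, 1480 and 890.5 TPM in ABC wt, against 45.8 to 105 TPM in the 8 Follicular libraries. The wt libraries carried the rise, while the index-high ABC library lay within the Follicular range; the log2 fold change was 2.40 ± 0.56 (limma adjusted p = 0.017). Igkv6-25, which was at 0 in at least 1 ABC library, fell by 5.41 ± 0.97 (limma adjusted p = 0.00688), and Igkv6-32 by 4.94 ± 0.97. Iglv3 had a log2 fold change of 1.13 and was not called (limma adjusted p = 0.0776). Of 5 light chain constant genes 1 fell and 0 rose, with a median of -0.35, against -3.03 for the V segments. The ratio of summed Igkv to Igkc TPM was 0.282 to 2.517 in ABC libraries, highest in the index-high one. Only 2 segments were called by edgeR on exon reads.

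**Figure D3:**
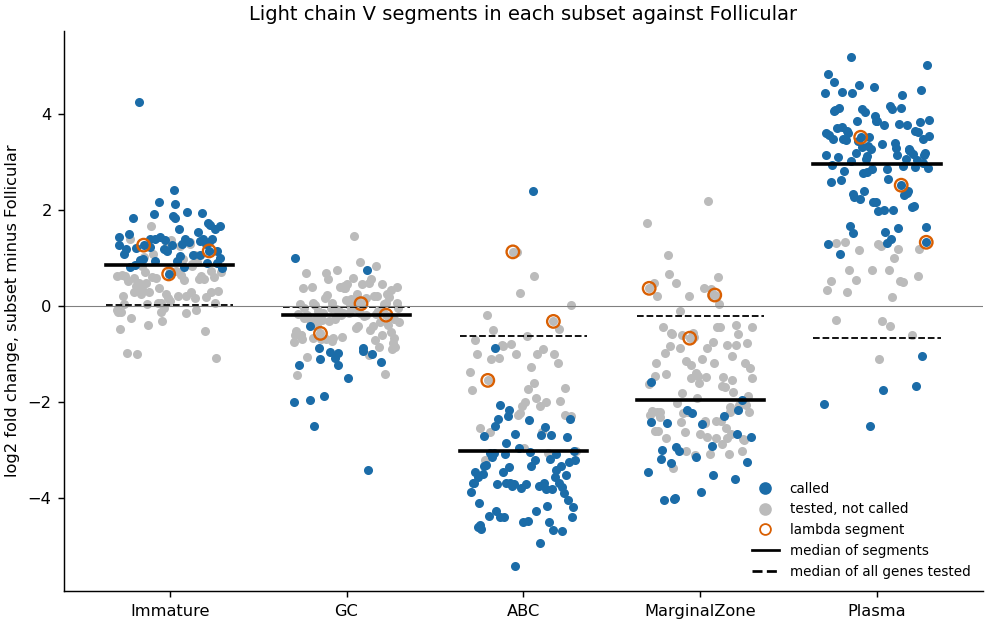
Each point is a light chain V segment, placed by its log2 fold change on the log2(TPM + 1) scale in the subset named below minus Follicular; blue points were called by limma, grey ones were not, and orange rings mark the lambda segments. Solid lines are medians of the segments and dashed lines those of all genes tested: 2.96 and -0.67 in Plasma, and -3.03 and -0.63 in ABC.

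Between genotypes within a subset, segments were called in Immature, GC and Plasma cells. In Immature cells 5 of 123 segments tested rose in libraries labelled 1Mek2 and 3 fell, against 0.465% of all genes called, 0.26% higher and 0.205% lower. Of the segments, 31 were higher in every library labelled 1Mek2 than in every wt library, against 7.1% of all genes, and 10 were lower, against 16.6%. The median log2 fold change was 0.46 over the segments and -0.20 over all genes. Igkv6-14 was at 79.1, 109 and 119 TPM in libraries labelled 1Mek2, against 651, 569 and 1171 TPM in wt. Every wt library was higher, and the log2 fold change was -2.90 ± 0.29 (SE; limma adjusted p = 0.0146). Igkv1-133, near the distal end of the locus, was at 67.8, 68.5 and 35.8 TPM, against 295, 320 and 481 TPM in wt, and fell by 2.67 ± 0.31 (limma adjusted p = 0.0146). Igkv6-29, which shares 55.8% of its 100-base windows with other segments, fell by 2.43 ± 0.40.

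The 5 that rose in Immature cells all lie in the proximal 54 kappa segments, near the joining genes. Igkv12-46 was at 3265, 2721 and 2967 TPM in libraries labelled 1Mek2, against 1293, 1274 and 1022 TPM in wt. The groups are clearly apart in TPM, at a log2 fold change of 1.32 ± 0.15 (limma adjusted p = 0.0146). The whole light chain V sum was also higher in these libraries labelled 1Mek2. As a share of that sum Igkv12-46 overlapped, at 2.296% to 5.994% against 2.434% to 3.076% in wt. Igkv3-7 was at 792, 1267 and 1254 TPM, against 176.5, 336.5 and 143 TPM in wt, and rose by 2.40 ± 0.33 (limma adjusted p = 0.0269). Igkv6-32 rose by 1.65 ± 0.26, Igkv6-25 by 1.15 ± 0.18 and Igkv12-44 by 1.10 ± 0.16. By share Igkv12-44 overlapped too (2.297% to 5.235% against 2.994% to 3.411% in wt). Igkv6-32 stayed apart by share (2.274% to 3.055% against 1.598% to 1.956% in wt). The count ran from 0 without the third or the fourth library labelled 1Mek2 to 20 without the second, and was 2 without the second wt library and 4 without the third.

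In Plasma cells 16 of 124 segments tested rose and 8 fell, against 9.05% of all genes called, 0.663% higher and 8.39% lower. The median was 0.58 over the segments and -0.67 over all genes, and rescaling to genes outside the immunoglobulin loci brought that of all genes to -0.31. Of the segments, 45 were higher in every library labelled 1Mek2 than in every wt library, against 2.89% of all genes, and 11 were lower, against 36.9%. Igkv11-125 was at 1200, 1533 and 424 TPM in libraries labelled 1Mek2, against 6.94, 1.20 and 2.06 TPM in wt. It was nearly absent from wt Plasma cells, and its log2 fold change was the largest, 7.93 ± 0.64 (limma adjusted p = 0.0117). Igkv5-37 was at 2288, 1478 and 618 TPM, against 0.470, 2.45 and 206 TPM in wt (log2 fold change 6.98 ± 1.64; limma adjusted p = 0.0447). Only the third wt library had it at over 3 TPM.

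In the Igkv3 family 6 of 11 tested members rose in Plasma cells, none fell and 5 were not called, with a median log2 fold change of 2.37 over the 11. Igkv3-4 was at 5869, 6379 and 6960 TPM in libraries labelled 1Mek2, against 2803, 302 and 412 TPM in wt (log2 fold change 3.18 ± 0.76; limma adjusted p = 0.0456). Igkv3-9 rose by 3.74 ± 0.51 and Igkv3-11, over 50% of whose 100-base windows occur in other segments, by 3.25 ± 0.35. Igkv6-20, with 55.8% of its windows shared, rose by 3.99 ± 0.87. Of the 8 that fell, 4 lie in the distal 54 segments and 4 in the proximal 54. Igkv1-133 was at 285, 919 and 499.5 TPM in libraries labelled 1Mek2, against 2311, 2042 and 2710 TPM in wt, and fell by 2.20 ± 0.44 (limma adjusted p = 0.0361). The neighbouring Igkv1-132 and Igkv1-131 fell by 3.21 ± 0.72 and 3.31 ± 0.37, Igkv4-51 by 3.55 ± 0.82 and Igkv8-26 by 3.45 ± 0.43.

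Igkv3-7, Igkv6-25, Igkv6-32 and Igkv12-46 rose, and Igkv6-14 and Igkv1-133 fell, in both Immature and Plasma cells. These 6 are 75% of the Immature calls and 25% of the Plasma calls. The calls rest on TPM, and by share of the sum Igkv12-46 overlapped between genotypes in both subsets. Animals 323 and 636 (labelled 1Mek2) and 358 and 487 (wt) gave libraries to both subsets, so the 2 results are not independent. T cell markers summed to 1083 to 1826 TPM in Plasma libraries labelled 1Mek2, against 2855 to 6688 TPM in wt, and 4 of the 8 fell; their part in the result was not tested. The Plasma count of 24 became 8 after rescaling to genes outside the immunoglobulin loci, 2 with no filter on low values, 53 with the index as a term and 0 by edgeR on exon reads. It was 0, 12 and 1 without each library labelled 1Mek2 in turn, and 11 and 1 without the first and the third wt library.

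In GC cells the 1 call among 113 segments tested was Igkv4-75, against 0.0458% of all genes. It was at 21.2, 8.01, 19.9 and 34.6 TPM in libraries labelled 1Mek2, against 0.386, 0, 1.22 and 0.404 TPM in wt. Every wt library was lower, with a log2 fold change of 3.77 ± 0.53 (limma adjusted p = 0.0318), and the call was lost with a pseudocount of 0.1 and by edgeR on exon reads. Of the segments 18 were higher without overlap, against 1.7% of all genes, and 2 were lower, against 3.1%. In ABC, Follicular and MarginalZone cells limma called 0 of 88, 119 and 104 segments, where it called 0% of all genes, and edgeR on exon reads called 0 as well. In ABC 26 were higher without overlap, against 10.6% of all genes, and in MarginalZone 24 were lower, against 16.8%. At an unadjusted p of 0.05, 51 of the ABC, 7 of the Follicular and 29 of the MarginalZone segments passed. Of all genes, 1575 of 11063, 1759 of 13623 and 1319 of 11989 did so. In Follicular cells the share was thus lower for segments than for all genes. The median log2 fold change over the ABC segments was 3.44, against 0.47 over all genes, that over the Follicular segments -0.24, against -0.40, and that over the MarginalZone segments -1.54, against -0.58. Without the third ABC wt library 15 ABC segments were called. No lambda segment was called between genotypes in any subset, and whether the genotype difference itself varies between subsets was not tested.

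**Figure D4:**
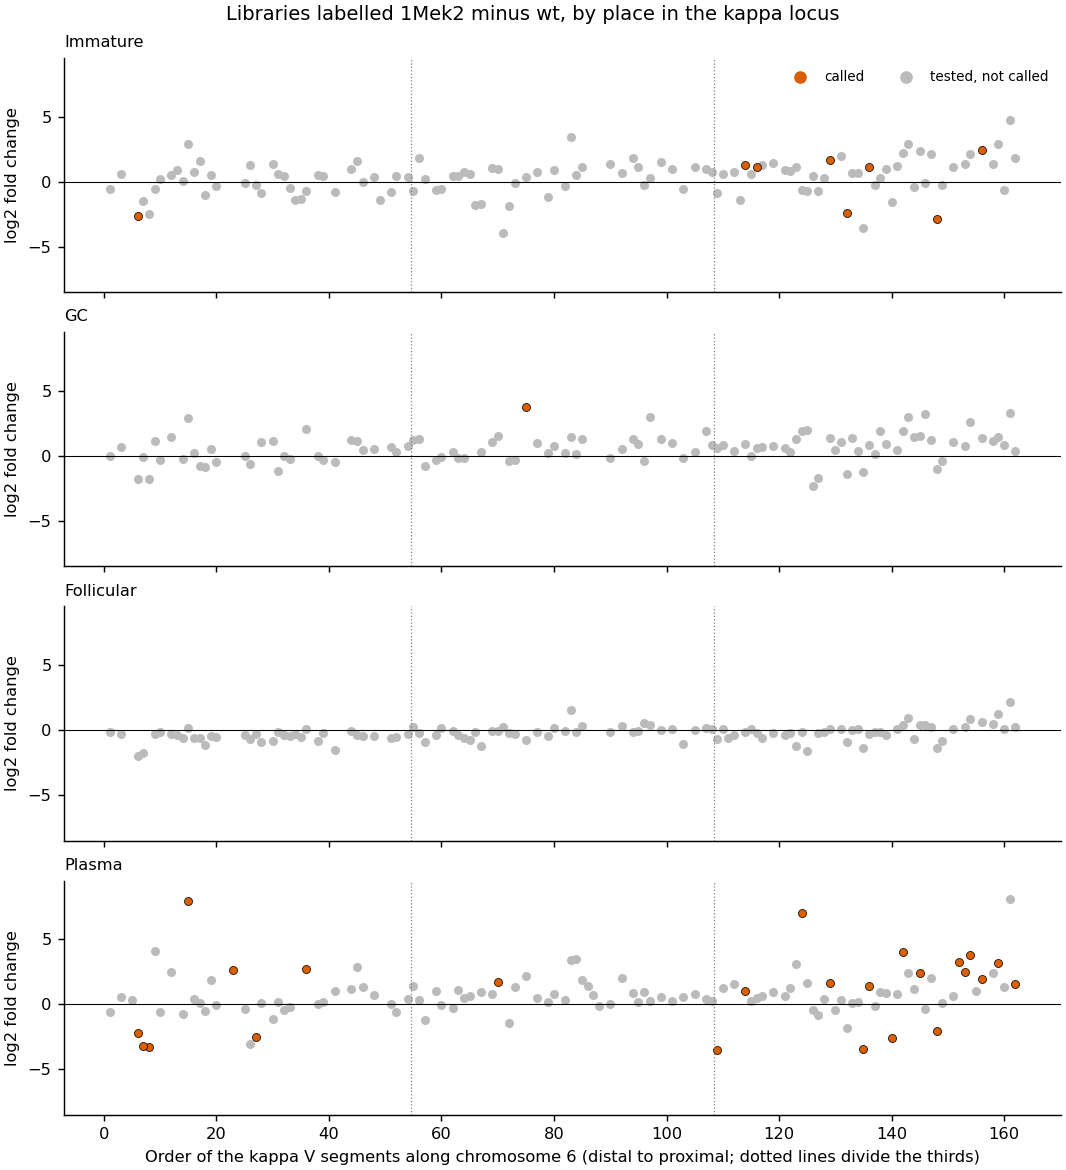
Kappa V segments are placed along the horizontal axis by their order in the locus, distal to the left and proximal to the joining genes on the right, with the log2 fold change of libraries labelled 1Mek2 minus wt on the vertical axis, for Immature, GC, Follicular and Plasma cells; orange points were called by limma. The proximal 54 hold all 5 Immature segments that rose and 2 of the 3 that fell (46 of the 123 tested), and 12 of the 16 Plasma segments that rose and 4 of the 8 that fell (48 of the 124 tested).

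Position in the locus was then read as the share of kappa V transcripts that came from the distal 54 segments (up to position 68713748). It was 17.4%, 16.2% and 17.8% in Immature libraries labelled 1Mek2, against 28.2%, 27.4% and 30.1% in wt. In Plasma cells it was 21.2%, 23.8% and 22.5%, against 31.5%, 32.8% and 32.4% in wt. In GC cells it was 18.7%, 18.2%, 18.7% and 17.3%, against 28.3%, 24.8%, 27.2% and 24.3% in wt. In each of these 3 subsets every library labelled 1Mek2 was lower.

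MarginalZone libraries also separated, at 18.3%, 21.9% and 20.6%, against 26.1%, 30.9% and 31.6% in wt. Follicular libraries overlapped, with 16.1%, 25.4%, 20.7% and 21.9% in libraries labelled 1Mek2, against 25.4%, 22.8%, 22.8% and 26.0% in wt. ABC libraries overlapped too, with 18.0%, 16.1% and 26.7%, against 1.75%, 9.77% and 23.0% in wt. The share from the proximal 54 segments was the mirror in Plasma cells, at 59.1%, 50.7% and 54.2%, against 44.4%, 43.6% and 42.4% in wt. In Immature cells it was 64.0%, 62.3% and 60.4%, against 51.4%, 51.5% and 47.6% in wt. The same animals recur across subsets, so these are not independent results. The wt libraries of Immature and Plasma cells all came from animals 358, 412, 413 and 487, described below. Genotype and that set of animals cannot be told apart there.

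Igkv3-2, Igkv6-14 and Igkv1-133 also differed between animals of the wt genotype. This was seen in the values, and these segments were then picked for it. Igkv3-2 held 1.23% to 2.61% of the sum in the Immature, GC, Follicular and Plasma libraries of the animals labelled 1Mek2. In the same 4 subsets wt animals 412 and 487 had 0.0008% to 0.0055%, animal 358 0.752% to 0.885% and animal 413 0.781% to 1.07%. The other 4 wt animals (562, 565, 670 and 671) had 0.985% to 2.04%, within or just below the range of those labelled 1Mek2. Thus 2 wt animals lacked nearly all Igkv3-2 transcripts, in every subset measured.

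Igkv6-14 and Igkv1-133 ran the other way. Igkv6-14 held 2.55% to 5.86% in the Follicular and Plasma libraries of animal 412, 1.84% to 3.58% in those of animal 487, 1.55% to 1.71% in those of 358 and 1.21% to 2.45% in those of 413, outside ABC and MarginalZone. In all other animals, wt and labelled 1Mek2, it held 0.09% to 0.746%. In the same 4 subsets Igkv1-133 held 0.523% to 1.37% in animals 358, 412, 413 and 487 and 0.004% to 0.271% in the others. Immature wt libraries came from 358, 413 and 487, and Plasma wt libraries from 358, 412 and 487. Of the 4 GC wt libraries, 3 came from this set (358, 413 and 487), and of the 4 Follicular wt libraries 1 did (412). Genotype and this set of animals therefore cannot be told apart in Immature and Plasma cells. This holds for these segments and for every other genotype difference given there. In GC cells the fourth wt animal (565) alone lies outside the set. In ABC and MarginalZone libraries the same animals could depart from this: animal 562 had 0.007% Igkv3-2 in ABC and 0.049% in MarginalZone, against 1.24% in Follicular cells.

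**Figure D5:**
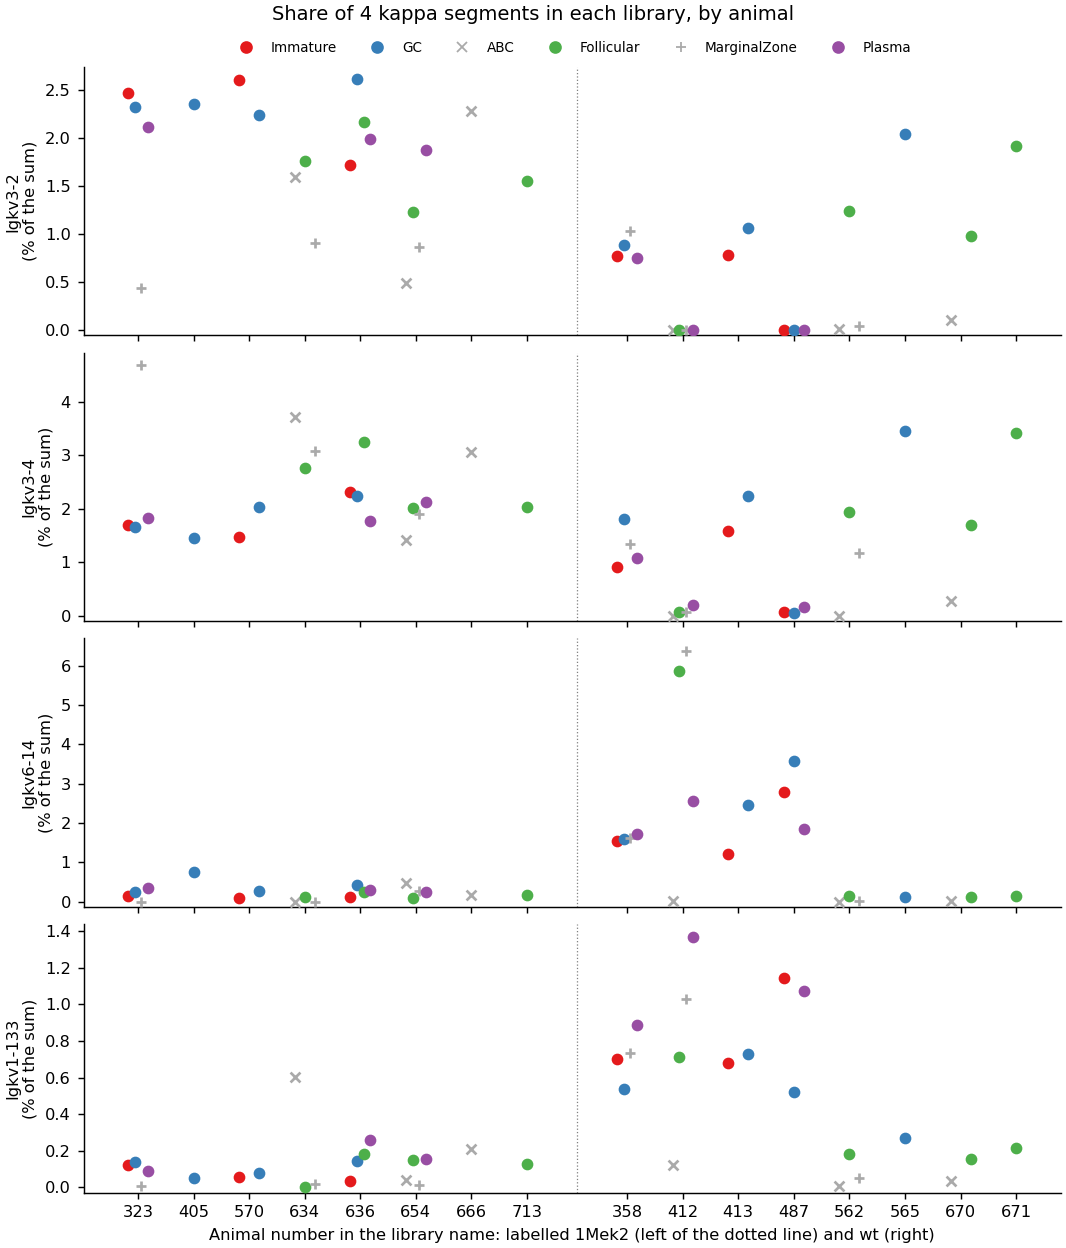
Each point is the share of Igkv3-2, Igkv3-4, Igkv6-14 or Igkv1-133 in the light chain V sum (%) of a library, coloured by subset and placed by the animal number in the library name, with animals labelled 1Mek2 left of the dotted line and wt animals right of it. Wt animals 412 and 487 lie near 0 for Igkv3-2, and 358, 412, 413 and 487 lie above all others for Igkv6-14 outside ABC, crosses and plus signs being ABC and MarginalZone.

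Over the 28 libraries of those 4 subsets and 15 animals, 8 of which gave several libraries, 95.9% of the within-subset spread of Igkv3-2 lay between animals. It ranked first of 71 segments, whose median was 68.5%. Igkv3-7 followed with 92.4%, Igkv3-4 with 91.6% and Igkv6-20 with 91.5%. These are descriptions, as the spread between animals includes that between genotypes. Animals with a single library add no spread within animals, so the percentage is high even without an animal effect. Its level without such an effect was not computed. The first rank of Igkv3-2 adds no support, since it was picked for differing between animals. Whole profiles of Immature and GC cells, compared by the share they have in common, overlapped by 78.1% to 86.1% in the 6 pairs from the same animal (median 80.0%) and by 65.2% to 84.6% in the 42 pairs from different animals (median 75.1%). Pairs from different animals include pairs of different genotypes. The median was also higher within an animal for the other pairs of subsets without ABC. These medians rest on 1 (GC with Follicular, Immature with Follicular) to 4 pairs from the same animal. For Follicular with MarginalZone it was 65.14% against 64.25%. With ABC the within-animal median was lower: 51.8% against 52.7% for Follicular, 45.5% against 51.2% for MarginalZone and 32.3% against 42.7% for Plasma cells.

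Over all 6 subsets, with subset as a term and animal as a random block, 5 of 140 segments tested rose in libraries labelled 1Mek2 and 3 fell, against 3.28% of all genes called, 0.313% higher and 2.96% lower. The block used a single correlation for all genes, 0.076, so libraries of the same animal counted as nearly independent. For segments whose share follows the animal, such as Igkv3-2, the errors and p-values of this fit are likely too small. Igkv3-2 had the largest change, 4.21 ± 0.85 (SE; limma adjusted p = 0.00623). In Plasma cells it was at 6780, 7117 and 6128 TPM in libraries labelled 1Mek2, against 1957, 1.18 and 2.43 TPM in wt, and in Immature cells at 1343, 3091 and 1716 TPM, against 322.5, 367 and 2.29 TPM in wt. In Follicular cells it was at 461, 813, 364 and 491 TPM, against 0.685, 440, 311 and 722 TPM in wt, so the genotypes overlapped there and a single wt animal stood apart.

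The other segments that rose on average were Igkv3-4 (2.73 ± 0.61), Igkv8-19 (2.49 ± 0.52), Igkv6-20 (1.75 ± 0.46) and Igkv3-9 (1.60 ± 0.41). Igkv8-19 was at 620, 407, 437.5 and 647 TPM in GC libraries labelled 1Mek2, against 82.0, 140.1, 12.8 and 108 TPM in wt, without overlap. Igkv6-29 fell by 1.86 ± 0.47 and Igkv1-131 by 1.47 ± 0.30, and the third was Igkv8-22, whose mean was under 5 TPM. All 5 that rose lie in the proximal 54 segments. Leaving out all libraries of 1 animal at a time gave 5 to 12 calls, and 5 each without animals 323, 487, 636 or 654. Constant, joining, recombination, hypermutation and regulator genes had 0 calls on average over the subsets by limma, of 5, 9, 10, 8 and 13 tested.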

How the data were processed

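The authors deposited TPM values and raw read counts per gene. Per the submitters' processing notes, reads were handled with Trim Galore 0.6.5, STAR 2.7.11a and featureCounts 2.0.3 on GRCm39; per the labels, libraries were made from polyadenylated RNA with reads of 100 bases. The deposited counts, taken over whole gene spans, were 0 for all 165 segments and gave coordinates only. Deposited TPM divided by the value of 1 read gave whole exon reads for 100% of nonzero values (tolerance 0.02), from which depth was read.

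Computed here: each segment's share of the light chain V sum per library, and limma 3.58.1 (R 4.3.3; trend and robust) on log2(TPM + 1), two-sided, over rows with at least 1 TPM in 3 libraries or more. Alternatives included edgeR 4.0.16 on exon reads. On simulated data, limma recovered 94.5% of 200 genes changed 4-fold for the Plasma genotype comparison (12647 genes tested), where 11.3% of its calls were false, and 100% for GC against Follicular (14646), where 3.4% were. The simulation gave all genes the same dispersion and no animal effect, and changed only genes with many reads. These rates therefore do not describe segments that vary between animals. Library names begin with a number that was taken as the animal; its correlation in the average fit was 0.076. Nothing says how animals were paired, and same-numbered replicates are different animals. Sequences came from GENCODE M21 (GRCm38), coordinates from the count table (GRCm39).

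Named segments followed a rule: every lambda segment, the 10 kappa segments with the largest mean share, the leader of each library and group, and per comparison up to 6 called segments in each direction with a mean of at least 5 TPM. Segments shown by animal were chosen after their values were seen. The members and lists were chosen with earlier results of these data known. Library kind (index-high or index-low) was found in the values.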

Additional observations from a re-analysis of the deposited data

Results flagged for a closer look

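Only the GC and Follicular groups, of 4 libraries each, were checked for a library far from its others, as the other groups were too small. Of 80 such checks (20 measures), 10 stood out. Chance gives about 1 in 20 for separate checks, and some of these share values. The fourth GC library labelled 1Mek2 (animal 405) had a light chain V sum of 56300 TPM, beside 30900 to 32550 TPM in the other 3, and Igkv6-23 held 12.99% there, beside 6.195% to 7.146%. The first (animal 323) had 6.417% Igkv12-46, beside 3.053% to 3.434%. The first GC wt library (animal 358) had 7.909% Igkv8-21, beside 2.117% to 2.743%.

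The second Follicular library labelled 1Mek2 (animal 636, index-high) had 6.077% for its leading segment, Igkv6-15, beside 12.64% to 13.59% in the other 3. Its kappa transcripts came to 55.97% from the proximal 54 segments, beside 64.85% to 66.47%. The first (animal 634) had 1.017% Iglv3, beside 0.7239% to 0.7655%, 4.11% Igkv8-30, beside 1.568% to 1.943%, and 3.899% Igkv8-21, beside 2.772% to 2.938%.

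In 2 measures every library labelled 1Mek2 lay on opposite sides of wt in different subsets; these differences between subsets were not tested. The effective number of segments was higher in ABC by 26.02 (41.58 against 15.56 in wt), and the difference was -10.93 in Immature cells (50.23 against 61.17 in wt). The Igkv6-32 share was higher in libraries labelled 1Mek2 by 1.028 percentage points in Immature, 1.169 in GC, 1.488 in ABC and 1.317 in Plasma cells, and the difference was -1.204 in MarginalZone cells.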

How the results depend on the processing

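The number of segments called depended on the setting in 8 of the 12 comparisons outside the fits that leave out a library. With no filter on low values it was 2 for the genotype effect in Plasma, 10 for GC, 30 for ABC and 8 for MarginalZone against Follicular. By edgeR on exon reads it was 0 for genotype in Plasma and in GC, 13 for GC, 2 for ABC and 4 for MarginalZone against Follicular. It was 8 for genotype in Plasma after rescaling and 0 for genotype in GC with a pseudocount of 0.1. Within wt alone it was 11 for Immature and 0 for MarginalZone against Follicular. With animal as a block it was 47 for MarginalZone against Follicular, and without it 16 for the average effect. Chosen after seeing the data, index-high libraries alone gave 2 for Immature and 1 for GC against Follicular, and the index as a term 53 for genotype in Plasma and 19 for the average.

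Same-numbered replicates were different animals, and the correlations of their deviations ran from -0.64 to 0.25, so the numbers do not pair them. With a replicate block the count was 4, 0 and 0 for genotype in Immature, GC and Plasma, and 31 and 5 for ABC and MarginalZone against Follicular.

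Leaving out 1 library at a time gave 0 to 20 calls for genotype in Immature, 0 to 29 in Plasma, 0 to 2 in GC, 0 to 15 in ABC and 0 in Follicular and MarginalZone, 46 to 64 for Immature, 10 to 27 for GC, 46 to 97 for ABC, 10 to 65 for MarginalZone and 103 to 114 for Plasma against Follicular, and 7 to 13 for the average; leaving out animals gave 5 to 12. Of 1436 alternative values of named segments, 1144 kept their call, 292 lost it and 0 reversed. The average fit had the most settings and weighs most in this count: Igkv3-4 kept its call there in all 63. Calls named for genotype in Plasma were less stable. The settings that kept them ran from 1 for Igkv5-37 (11 lost it) to 8 for Igkv11-125 (4 lost it). Lambda share from constant genes moved in 12 of 12 groups, to 29.3% to 55.3%, and inverse Simpson evenness in 9. edgeR on the deposited counts gave no value, as every segment is at 0 there, and an animal block could not be fitted for Immature and GC against Follicular, which share 1 animal. The causes were not tested. Depth limits the ABC wt library with 4088 light chain V reads most.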

Other observations

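The Immature library left out of every comparison, from animal 565, held 43845 TPM of light chain V transcripts, with 13.5% lambda and 57.0 effective segments, led by Iglv1 at 9.95%. Igkv3-2 held 1.66% and Igkv6-14 0.260% there. The GC library of the same animal, labelled wt, had 2.04% Igkv3-2 and 0.109% Igkv6-14.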
